A study of Mus musculus with 7 samples.

Results

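*Mybl1*, *Mybl2*, *Tcfl5*, *Rfx1*, *Rfx2*, *Rfx3*, *Rfx4*, *Crem* and *Sox30* encode transcription factors tied to the spermatocyte and spermatid programs of the testis. They were taken by name and not by a rule on their values, although earlier results of these data were known at that point. These 9 genes, with 39 annotated transcripts, were followed among 21928 genes in total RNA-seq of synchronized mouse testes, and 8 of them passed the expression filter that left 13630 genes for testing. The libraries came from 4 wild-type (WT) pups and 3 *Meioc*-null (Meioc KO) pups of strain C57BL/6N. Spermatogenesis was synchronized in every pup, WT included: 0.1 mg per g body weight of WIN 18,446, an inhibitor of retinoic acid synthesis, was given from postnatal day 2 to day 8, then 0.0125 mg per g retinoic acid on day 9, and testes were collected 6.75 days later. The null pups carried the *Meioc* null allele (tm1.1Dpc) in all tissues, so the deletion was not restricted to a cell type. Each library held the RNA of 1.5 testes of a single pup, so it mixed germ cells with all somatic cells of the testis, and fewer cells of a type cannot be told apart from less RNA per cell. The libraries held 12537852 to 20552702 estimated counts assigned to transcripts. WT replicate 1 was as near to a null library as to its own group. Its mean squared difference over counting noise was 11.3 from null replicate 1 and 14.7, 20.7 and 25.3 from the other WT libraries, and its log2 CPM over genes correlated at 0.981 with both null replicate 1 and WT replicate 2. Members whose call changes without it are given both ways.

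MYBL1 (A-MYB) is the MYB-family activator of pachytene spermatocyte genes and of pachytene piRNA precursor loci, and TCFL5 is a testis basic helix-loop-helix factor that acts with it. MYBL2 (B-MYB) binds the MuvB complex in dividing cells and activates genes of the G2 and M phases. RFX factors bind X-box sites in promoters of cilium genes, and RFX2 is known for its part in forming the sperm flagellum. CREM activates genes in round spermatids, where SOX30 is also required. MEIOC is a germline protein that acts on RNA at the switch from mitotic to meiotic divisions, and *Meioc*-null spermatocytes do not complete a normal meiotic prophase.

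The promoters of *Rfx1*, *Rfx2* and *Rfx3* are shown because they share a sequence that is uncommon among mouse promoters. RefSeq windows ran from 250 bases before to 50 bases after each annotated start (assembly GRCm38.p6, 32851 windows). Windows were available for 7 of the 9 genes. *Mybl1* and *Crem* had none, so their promoters were not searched for any element. The RFX element GTTGCC was found on either strand in 12.5% of windows and in those of *Rfx1*, *Rfx2* and *Rfx3*. The longer paired element, GNAAC and then GTTGCC with 1 base between them, which was chosen after these sequences had been seen, was found in 25 windows (0.0761%), again including these 3 genes. It contains the shorter element, and in *Rfx2* and *Rfx3* it also contains the MYB element AACGG on the opposite strand. Each stretch below is 30 bases long, with the paired element in capitals; *Rfx1* lies at chr8:84066822-84066851 (plus strand), *Rfx2* at chr17:56831110-56831139 (minus strand) and *Rfx3* at chr19:28011121-28011150 (minus strand).
Rfx1: gggtgggtaGCAACAGTTGCCccggtgagg
Rfx2: tgcagcttgGTAACCGTTGCCgggcgcaac
Rfx3: tgagttataGCAACCGTTGCCttgtgaatc
The element starts 5 bases before the start site in *Rfx1* and 122 bases before it in *Rfx2*, while in *Rfx3* it starts at base 26 after it. For *Rfx3* this is the most upstream annotated start. Transcript Rfx3-202, with 87.6% of the gene's counts in WT and 94.2% in null, starts 28192 bases downstream of it, so the stretch shown is not its promoter. A match describes letters in a window, not a bound site.

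The *Tcfl5* promoter is shown for its 3 matches to the MYB element AACGG (capitals, either strand), an element found at least once in 17.4% of all windows. The *Mybl2* promoter is shown for the E2F element GGCGGGA (capitals), found in 11.3% of windows. The *Tcfl5* stretch is chr2:180642692-180642828 on the minus strand and the *Mybl2* stretch is chr2:163054602-163054634 on the plus strand, both GRCm38.
Tcfl5: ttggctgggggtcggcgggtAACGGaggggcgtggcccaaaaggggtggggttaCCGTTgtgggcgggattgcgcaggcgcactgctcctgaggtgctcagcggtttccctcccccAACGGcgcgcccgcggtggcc
Mybl2: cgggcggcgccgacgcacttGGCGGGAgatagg
The *Tcfl5* matches begin 117, 83 and 21 bases before the start site, and the *Mybl2* match begins 13 bases before it. AACGG also occurred 3 times in the window of *Rfx2*, 2 times in that of *Rfx3* and 1 time each in those of *Rfx1* and *Sox30*. GGCGGGA occurred 2 times in the window of *Rfx2* and 1 time each in those of *Sox30* and *Tcfl5*. The full cAMP response element TGACGTCA, found in 1.79% of windows, was in none of the windows of the matched members, which do not include *Crem* or *Mybl1*. Its core TGACG, found in 20.8% of windows, was in those of *Rfx1*, *Rfx2* and *Rfx4*. The sequence CNCCTCAG, given for STRA8 and MEIOSIN binding, was in the windows of *Rfx2* and *Tcfl5* and in 7.94% of all windows.

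No member passed the threshold between WT and *Meioc*-null testes. With edgeR's quasi-likelihood test, 0 of 8 tested members reached an adjusted p under 0.05, beside 11.1% of all genes tested (7.77% higher in WT and 3.33% lower). At an unadjusted p under 0.05 there were 4 of 8 (*Mybl1*, *Mybl2*, *Tcfl5* and *Rfx2*), beside 30.3% of all genes. DESeq2 called 1 of 8 (*Mybl1*), beside 17.1%, and limma on log2(TPM + 1) called 2 of 8 (*Mybl2* and *Tcfl5*), beside 18.5%. The members' median log2 fold change, WT over null, was 0.11 beside −0.0065 for all genes, with 4 members above 0 and 4 below. The targeted gene *Meioc* was lower in the null libraries, at 468, 660, 664 and 720 CPM (counts per 1000000 counts of the library, with TMM scaling) in WT and 400, 300 and 413 in null, a log2 fold change of 0.76 (SE 0.16, adjusted p = 0.021, edgeR). The counts cover the whole transcript, including parts that the deletion may leave in place. The difference went in the direction of the labels, but it was called in only 2 of the 7 fits that left out 1 library (adjusted p up to 0.064).

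**Figure D1:**
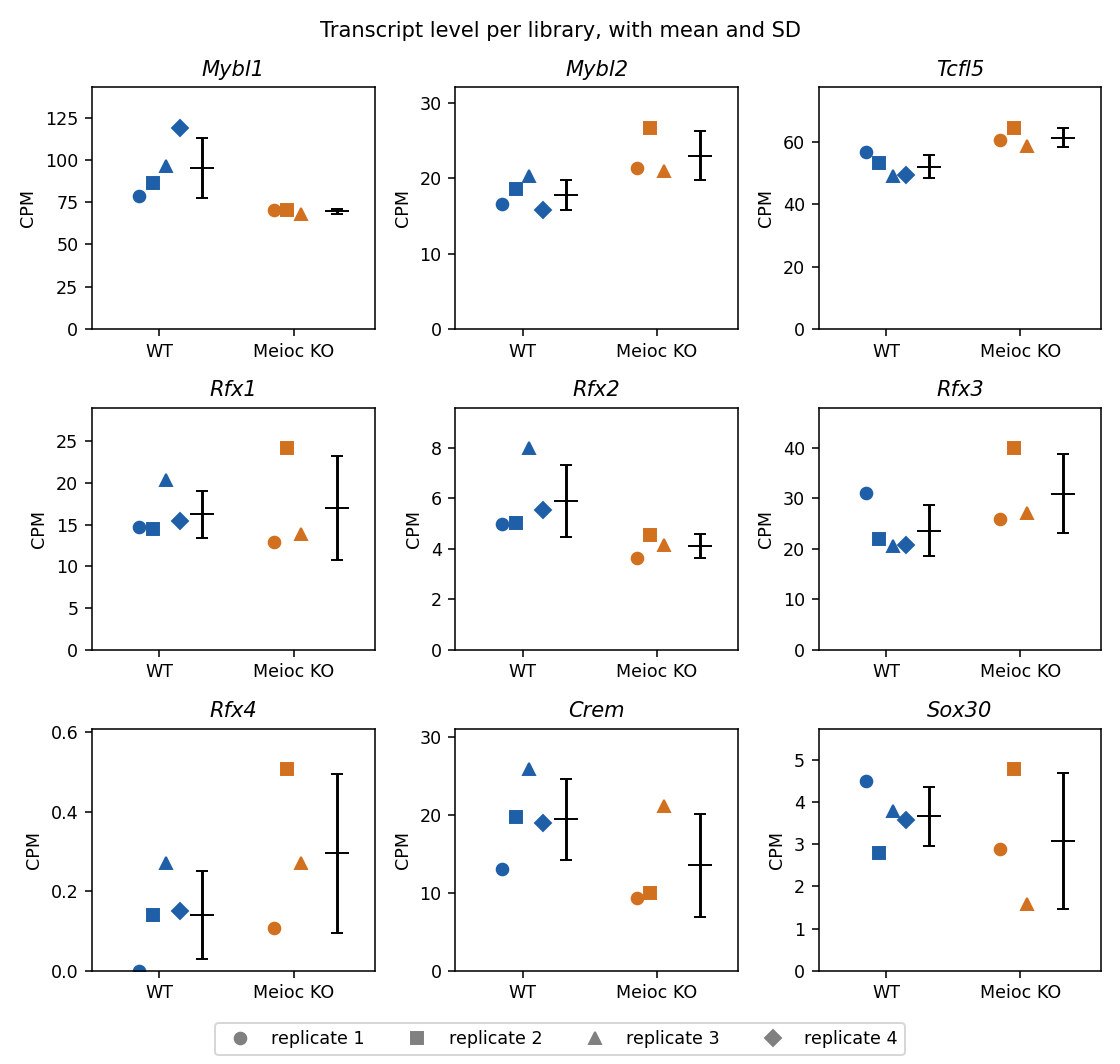
CPM with TMM scaling (vertical axes, each from 0) of the 9 genes in the 4 WT and 3 Meioc KO libraries, with a panel for each gene, a marker shape for each replicate number, and the group mean and SD beside the points. The groups do not overlap for Mybl1 and Rfx2 (higher in WT) or for Mybl2 and Tcfl5 (lower in WT), and Rfx4 is below 1 CPM throughout.

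*Mybl1* (chr1:9667415-9700209, minus strand, GRCm38) was the MYB gene with the highest level. Its CPM was 78.8, 86.2, 96.5 and 119 in the WT libraries and 70.4, 70.1 and 68.0 in the null libraries. Every WT library stood above every null library, and the WT values were spread over a wider range. The log2 fold change was 0.46 (SE 0.13, 95% interval 0.16 to 0.75, 1.37-fold), which missed the threshold in edgeR (adjusted p = 0.052) and passed it in DESeq2 (adjusted p = 0.0157). Without WT replicate 1, the lowest WT library, *Mybl1* was called at 0.54 (adjusted p = 0.0184, edgeR). On the TPM scale, transcripts per 1000000, which is per length and fixes the total of each library, the groups overlapped, at 45.3 to 61.6 in WT and 42.2 to 47.9 in null.

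*Mybl2* (chr2:163054687-163084688, plus strand) lay the other way. Its CPM was 16.6, 18.6, 20.3 and 15.8 in WT and 21.3, 26.7 and 21.0 in null, and the groups did not overlap. The mean was 17.8 ± 2.00 in WT (SD, n = 4) and 23.0 ± 3.23 in null (SD, n = 3), a log2 fold change of −0.37 (SE 0.13, 95% interval −0.66 to −0.076, adjusted p = 0.094, edgeR). It passed the threshold without TMM scaling, by library size only (−0.45, adjusted p = 0.049), and in limma on log2(TPM + 1) (−0.53, adjusted p = 0.046). On that TPM scale the median over all genes was itself −0.23.

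*Tcfl5* (chr2:180621956-180642708, minus strand), whose protein acts with MYBL1, followed *Mybl2* and not *Mybl1*. Its CPM was 56.8, 53.2, 49.2 and 49.5 in WT and 60.8, 64.7 and 58.9 in null. All null libraries lay above all WT libraries, with the closest pair at 56.8 and 58.9. The log2 fold change was −0.24 (SE 0.082, 95% interval −0.42 to −0.054, adjusted p = 0.088, edgeR), or 1.18-fold higher in null. Without WT replicate 1, the highest WT library, it was called at −0.28 (adjusted p = 0.048), and limma on log2(TPM + 1) called it at −0.46 (adjusted p = 0.033).

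Separation by range was common over all genes. CPM ranges that did not overlap between genotypes were seen in 4 of 8 tested members and in 26.2% of all genes. By direction, *Mybl1* and *Rfx2* were among the 15.4% of genes with every WT library higher, and *Mybl2* and *Tcfl5* among the 10.8% with every WT library lower. With TPM, 2 of 8 members (*Mybl2* and *Tcfl5*) and 33.3% of genes did not overlap.

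**Figure D2:**
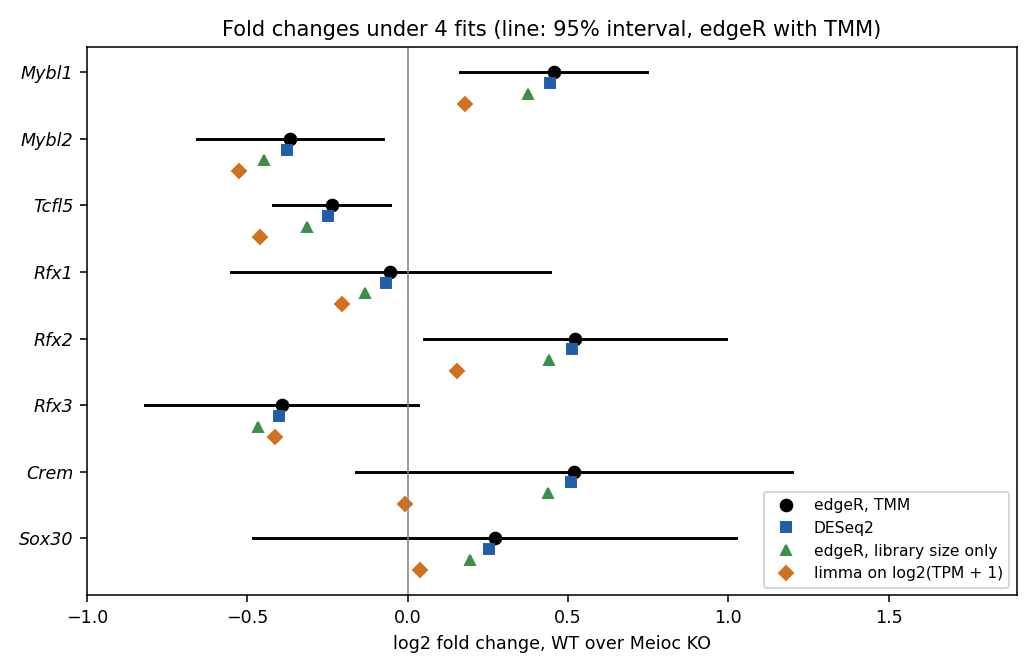
Log2 fold change, WT over Meioc KO (horizontal axis), of the 8 tested genes in 4 fits: edgeR with TMM (circles, with the 95% interval as a line), DESeq2 (squares), edgeR by library size only (triangles) and limma on log2(TPM + 1) (diamonds); the vertical line marks 0. The edgeR intervals of Mybl1, Mybl2, Tcfl5 and Rfx2 lie to one side of 0 before adjustment, and the limma values lie to the left of edgeR with TMM for all 8 genes.

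The RFX genes did not move as a group. *Rfx2* (chr17:56775897-56831013, minus strand) had 4.98, 5.03, 7.97 and 5.55 CPM in WT and 3.63, 4.56 and 4.13 in null. Each WT library exceeded each null library, and the log2 fold change was 0.52 (SE 0.21, 95% interval 0.052 to 0.99, adjusted p = 0.13, edgeR). These values rested on 63 to 118 counts per library.

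*Rfx1* (chr8:84066834-84096992, plus strand) and *Rfx3* (chr19:27761721-28011166, minus strand) were the other tested RFX members. *Rfx1* was at 14.7, 14.5, 20.4 and 15.4 CPM in WT and at 12.98, 24.1 and 13.8 in null, so each group had 1 high library and the groups overlapped. Its log2 fold change was −0.054 (SE 0.22, 95% interval −0.55 to 0.44, adjusted p = 0.89, edgeR) and became 0.28 without null replicate 2 (adjusted p = 0.33). *Rfx3* was at 31.1, 22.0, 20.5 and 20.7 CPM in WT and at 25.9, 39.9 and 27.1 in null. Here 3 WT libraries lay below every null library and WT replicate 1 lay among them, and the log2 fold change was −0.39 (SE 0.19, 95% interval −0.82 to 0.032, adjusted p = 0.20, edgeR). Without WT replicate 1 it was −0.55 (adjusted p = 0.054). Null replicate 2 gave the highest CPM of that group for all 9 members except *Mybl1* and *Crem*.

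*Rfx4* (chr10:84756062-84906538, plus strand) was close to undetected. Its counts were 0, 2, 4 and 3 in WT and 2, 7 and 5 in null, where 3 counts amount to 0.151 to 0.237 CPM in these libraries. With no filter on low values the log2 fold change was −0.93 (SE 0.81, 95% interval −2.71 to 0.84, adjusted p = 0.53, edgeR), so no difference was detectable at this depth.

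*Crem*, on the minus strand of chromosome 18, varied among pups more than between genotypes. Its CPM was 13.1, 19.8, 25.9 and 19.0 in WT and 9.40, 9.999 and 21.2 in null. The first and second null libraries lay below all WT libraries, while the third lay above 3 of the 4. The log2 fold change was 0.52 (SE 0.30, 95% interval −0.16 to 1.2, adjusted p = 0.28, edgeR), and without null replicate 3 it was 1.01 (adjusted p = 0.071). On the TPM scale it was −0.0075, with 26.0 to 55.5 TPM in WT and 20.8 to 68.9 in null.

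*Sox30* (chr11:45980310-46017994, plus strand) was low in both groups, at 4.51, 2.80, 3.78 and 3.58 CPM in WT and 2.88, 4.78 and 1.58 in null. The null range contained the whole WT range, on 29 to 71 counts per library. Its log2 fold change was 0.27 (SE 0.34, 95% interval −0.48 to 1.02, adjusted p = 0.62, edgeR), with −0.052 without null replicate 3 and 0.71 without null replicate 2.

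Levels were compared between genes only as TPM, which is per length. In WT the order was *Mybl1* (51.2 ± 7.49 TPM, SD, n = 4), *Crem* (36.2 ± 13.7) and *Tcfl5* (35.2 ± 4.29), then *Rfx3* (5.79 ± 1.28), *Mybl2* (5.28 ± 0.533) and *Rfx1* (3.91 ± 0.622). *Rfx2* (1.97 ± 0.442), *Sox30* (1.69 ± 0.438) and *Rfx4* (0.0649 ± 0.0512) came last. Neighbours in this order were separated beyond their range over libraries at 3 points, from *Tcfl5* to *Rfx3*, from *Rfx1* to *Rfx2* and from *Sox30* to *Rfx4*. The ranges of all other neighbours overlapped. Among genes that were not neighbours, *Mybl1* (45.3 to 61.6) lay wholly above *Tcfl5* (32.2 to 41.5) and *Rfx3* (4.88 to 7.68) wholly above *Rfx1* (3.33 to 4.77), while *Crem* and *Mybl2* could not be placed within their groups.

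**Figure D3:**
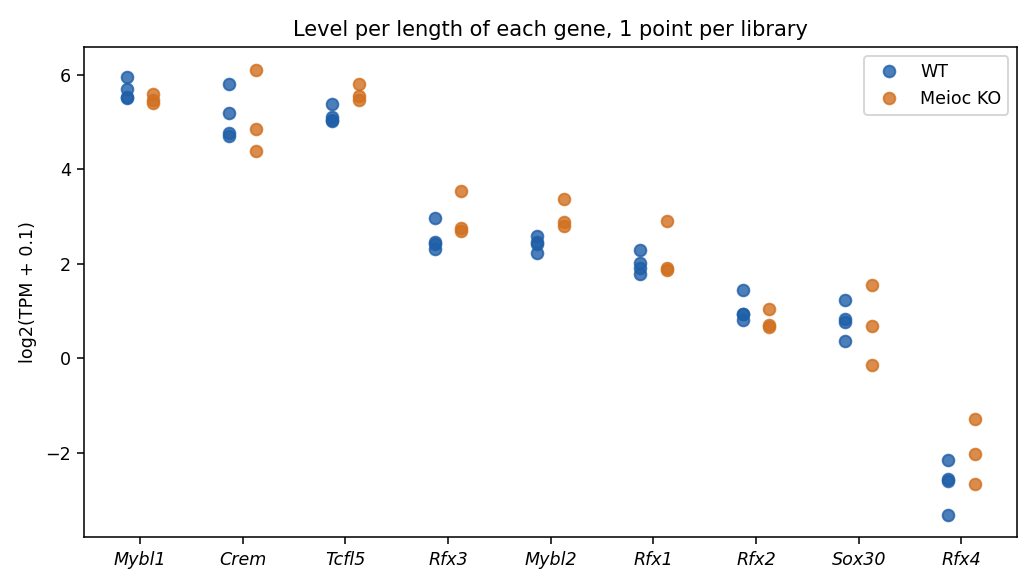
Level per length, as log2(TPM + 0.1), of the 9 genes (vertical axis), with a point for each WT and Meioc KO library and genes ordered by the WT mean. Mybl1, Crem and Tcfl5 form the upper group in every library, Rfx3, Mybl2 and Rfx1 come next, and Rfx4 lies lowest.

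The transcripts behind each gene were also compared, as shares of the gene's estimated counts. *Mybl2*, *Tcfl5* and *Sox30* had 1 annotated transcript each. Of *Mybl1*, transcript Mybl1-201 held 88.9 ± 2.66% in WT and 89.7 ± 3.69% in null (two-sided exact permutation p = 0.857). Of *Rfx3*, Rfx3-202 held 87.6 ± 2.14% in WT and 94.2 ± 2.94% in null. The exact permutation test gave p = 0.0571, the smallest that 4 against 3 libraries allow, and 0.4 after Benjamini-Hochberg adjustment over 7 shares. Rfx3-202 is the longest *Rfx3* transcript (9146 bases), and as a share of TPM, which is per length, it held 70.5 ± 5.96% in WT and 85.0 ± 5.93% in null. The other 5 shares, of *Rfx1*, *Rfx2*, *Rfx3* and *Crem* transcripts, had exact permutation p from 0.171 to 1.

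*Crem* had 23 annotated transcripts, of which 6 were at 0 in every library and 5 had a count in every library. The gene is known for several promoters, of which a downstream one makes the short repressor form ICER. The transcripts were grouped by their start after the values had been seen, and the groups are given without a test. The 8 transcripts that begin within 260 bases of the gene's most upstream start encode 124 to 357 residues and held 10.6, 16.0, 15.7 and 16.3 CPM in WT and 6.68, 6.20 and 10.9 in null. The 7 transcripts that begin 55979 to 56670 bases downstream encode 95 to 125 residues and held 1.74, 2.31, 6.29 and 1.09 CPM in WT and 0.975, 1.45 and 7.46 in null. The upstream-start transcripts were higher in every WT library than in null replicates 1 and 2 but not than in null replicate 3, whereas the downstream-start transcripts were high in WT replicate 3 and null replicate 3. The downstream-start share of the gene's counts was 13.7 ± 7.76% in WT (SD, n = 4) and 20.03 ± 13.3% in null (SD, n = 3). A share of counts understates short transcripts, and as a share of TPM, which is per length, the same transcripts held 38.4, 31.0, 47.6 and 14.2% in WT and 25.5, 26.9 and 59.4% in null. The remaining 8 transcripts, with starts 10157 to 38296 bases downstream, held 0.787, 1.45, 3.91 and 1.599 CPM in WT and 1.74, 2.35 and 2.83 in null, or 9.22 ± 4.06% and 18.4 ± 5.08% of the counts. The genotypes overlapped in these CPM and count shares, whereas the middle-start share of TPM was 5.55 to 16.4% in WT and 17.6 to 25.5% in null, without overlap. The nearest libraries there were WT replicate 3 and null replicate 3, and the middle-start group held only 9.96 to 57.9 estimated counts per library. How often such shares separate in other genes was not examined.

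**Figure D4:**
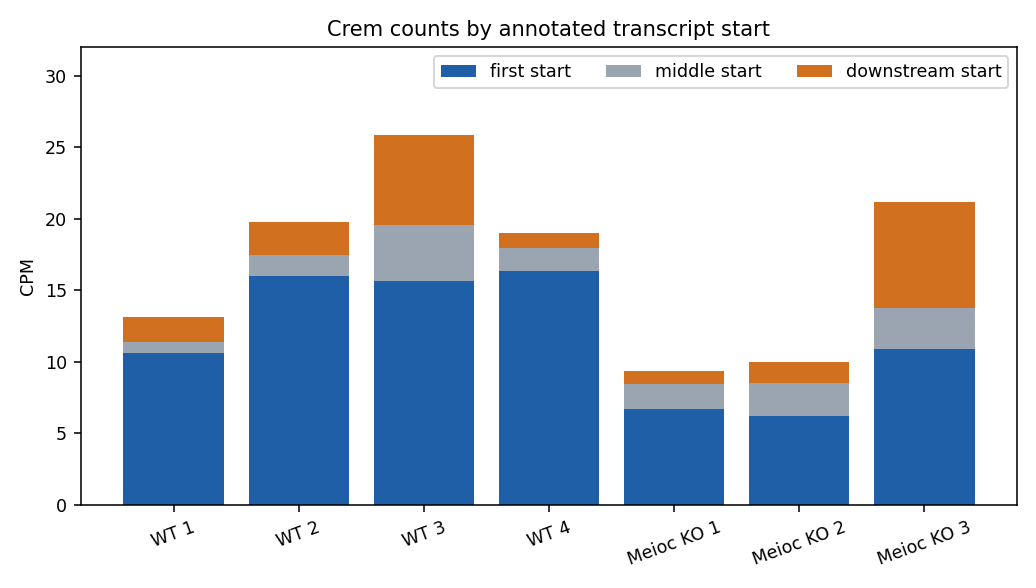
CPM of Crem transcripts (vertical axis) in each of the 7 libraries, as stacked bars split by where transcripts begin; first start in the legend is the upstream start. The downstream-start part reaches 6.29 CPM in WT replicate 3 and 7.46 in Meioc KO replicate 3 and stays at 2.31 or lower in the other libraries.

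Partners and relatives of the members were read from lists of named genes. Over all genes tested, edgeR called 11.1% (7.77% higher and 3.33% lower in WT), and 30.3% had an unadjusted p under 0.05. Of the MYB family and MuvB complex, 0 of 7 tested genes passed the threshold (edgeR; DESeq2 also called 0, and 2 had an unadjusted p under 0.05), with a median log2 fold change of 0.037. *Myb*, the remaining MYB gene, was at 1.58 ± 0.563 CPM in WT and 2.51 ± 0.990 in null, a log2 fold change of −0.68 (SE 0.36, adjusted p = 0.24). The MuvB subunits *Lin9* and *Lin52* had log2 fold changes of 0.26 (adjusted p = 0.090) and 0.32 (adjusted p = 0.084), with every WT library above every null library. *Lin37*, *Lin54*, *Rbbp4* and *Foxm1* had log2 fold changes between −0.19 and 0.11, with overlapping CPM.

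Of 13 G2 and M phase genes known as targets of MuvB with MYBL2 and FOXM1, 3 were higher and 1 lower in WT. Over all genes these shares were 7.77% and 3.33%. The median log2 fold change of the 13 genes was −0.12. *Top2a*, which encodes topoisomerase II alpha, was higher in WT by a log2 fold change of 1.68 (SE 0.32, adjusted p = 0.017), and the spindle checkpoint kinase gene *Bub1* by 1.26 (SE 0.28, adjusted p = 0.024). The cyclin B gene *Ccnb1* was lower by −0.60 (SE 0.10, adjusted p = 0.013), at 12.4 ± 0.414 CPM in WT (SD, n = 4) and 18.8 ± 1.21 in null (SD, n = 3). Leaving out single libraries, *Ccnb1* was lost without null replicate 3 (adjusted p = 0.061). *Top2a* was lost without WT replicate 2 or 3 or null replicate 2 or 3, and *Bub1* without these or WT replicate 4. The third higher gene, *Cenpf*, which encodes a kinetochore protein, had a log2 fold change of 0.69 (SE 0.18, adjusted p = 0.038), was called in 1 of 7 fits that left out 1 library (adjusted p up to 0.10) and was not called in limma on TPM. Without null replicate 3 none of these 4 calls remained in edgeR. At an unadjusted p under 0.05 there were 7 of 13, beside 30.3% of all genes. They went both ways, with *Top2a*, *Bub1*, *Cenpf* and *Birc5* higher in WT and *Ccnb1*, *Plk1* and *Aurka* lower.

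Other RFX genes and partners gave 0 calls among 5 tested in edgeR (2 at an unadjusted p under 0.05), with a median log2 fold change of −0.044, while DESeq2 called *Rfx5* lower in WT (adjusted p = 0.023). *Rfx5* had −0.38 in edgeR (SE 0.11, adjusted p = 0.059). *Rfx8* was low, at 1.01 ± 0.308 CPM in WT and 2.15 ± 0.694 in null, and its log2 fold change was −1.06 (SE 0.33, adjusted p = 0.067) with groups that did not overlap. *Rfx7*, *Rfxank* and *Rfxap* lay between −0.044 and 0.18, and *Rfx6* was below the filter. Of cilium and axoneme genes, which include known RFX targets, 0 of 10 tested passed in edgeR (1 at an unadjusted p under 0.05) and 1 (*Ift122*, higher in WT, adjusted p = 0.036) in DESeq2, with a median log2 fold change of 0.047.

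Of the CREB family and CREM coactivators, 1 of 8 tested genes was called, beside 11.1% of all genes. *Taf7l*, a germ cell paralogue of a TFIID subunit, was higher in WT at 472 ± 50.4 CPM (SD, n = 4) against 284 ± 35.04 (SD, n = 3), a log2 fold change of 0.73 (SE 0.11, adjusted p = 0.010, edgeR). It was called in all 7 fits that left out 1 library. The other 7, *Creb1*, *Atf1*, *Crtc1*, *Crtc2*, *Crtc3*, *Crebbp* and *Kif17*, had log2 fold changes between −0.46 and −0.020 and did not pass. *Fhl5*, which encodes the testis coactivator ACT, was below the filter, at 0.379 ± 0.265 CPM in WT and 0.175 ± 0.0865 in null.

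Of 13 tested germline transcription regulators outside these families, 4 were higher in WT and 0 lower, with a median log2 fold change of 0.20 (6 of 13 at an unadjusted p under 0.05). *Gm4969*, the gene of the STRA8 partner MEIOSIN, had 222 ± 54.6 CPM in WT and 28.7 ± 4.67 in null, a log2 fold change of 2.95 (SE 0.22, adjusted p = 5.8e-04, edgeR). *Zfp541*, which encodes a zinc finger protein of spermatocytes, had 33.2 ± 5.36 and 10.1 ± 1.49 CPM, a log2 fold change of 1.71 (SE 0.16, adjusted p = 0.0012). Both were called in all 7 fits that left out 1 library. The other calls were *Hsf5* and *Taf4b*, with log2 fold changes of 0.80 and 0.58, and their adjusted p reached 0.067 and 0.072 when single libraries were left out.

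Spermatid genes were scarce. Of 15 spermatid genes only *Spaca1* passed the expression filter (log2 fold change −0.40, adjusted p = 0.23), and *Prm1*, *Prm2*, *Tnp2* and *Hils1* were at 0 in all 7 libraries. Of 12 pachytene and piRNA genes 8 were tested, with a median log2 fold change of 0.18. *Hspa2* and *Mael* were higher in WT (0.53 and 0.36, adjusted p = 0.034 and 0.017, edgeR) and *Tdrd5* lower (−0.59, adjusted p = 0.045). Over all genes 7.77% were higher and 3.33% lower. At an unadjusted p under 0.05 there were 7 of 8, beside 30.3% of all genes. *Hspa2* encodes a spermatocyte heat shock protein, and *Mael* and *Tdrd5* act in the piRNA pathway. Each of the 3 lost its call when some single libraries were left out, null replicate 3 among them in each case, with adjusted p up to 0.096, 0.071 and 0.11. *Hspa2*, *Mael*, *Hsf5* and *Taf4b* kept their sign in limma on log2(TPM + 1) but were not called there.

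**Figure D5:**
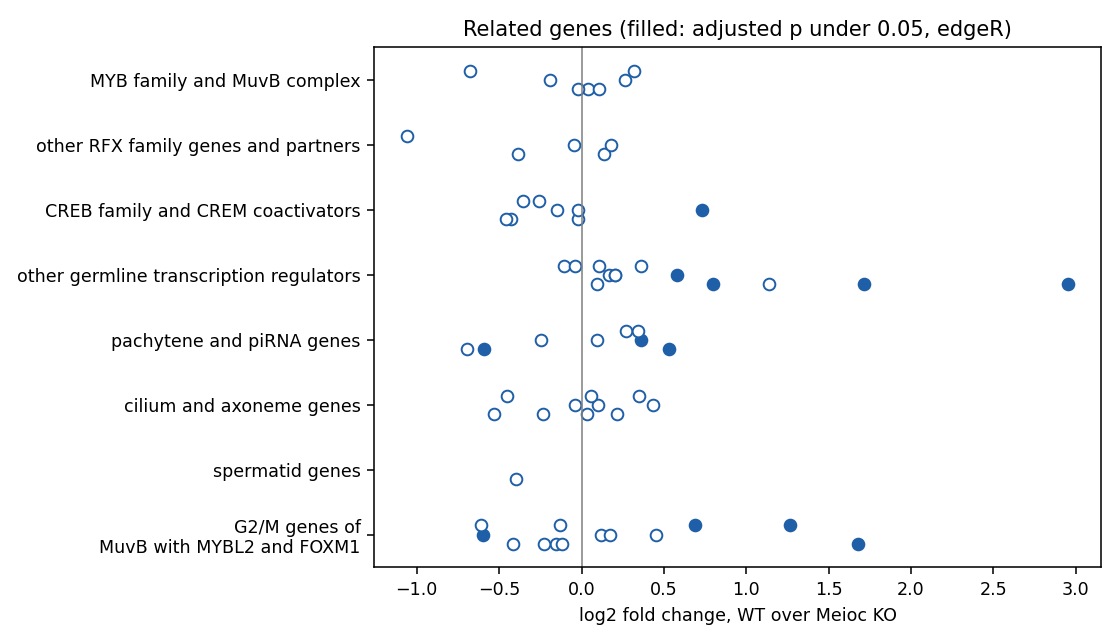
Log2 fold change, WT over Meioc KO (horizontal axis), of each tested gene of the 8 related lists, with a circle for each gene, filled where the edgeR adjusted p is under 0.05; vertical offsets within a list only separate the circles. Of the 12 filled circles, 4 are other germline regulators and 4 are G2/M genes, and the MYB and MuvB, other RFX, cilium and spermatid lists hold none.

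The summed CPM of several marker lists differed between genotypes and is set beside these results. Over all genes tested, edgeR called 7.77% higher and 3.33% lower in WT. Markers of undifferentiated spermatogonia summed to 171 to 200 in WT and 249.1 to 367 in null, with 3 of 6 lower in WT (*Zbtb16*, *Nanos3* and *Lin28a*). Most of that sum was *Zbtb16* (mean 64.6 CPM in WT and 117 in null) and *Lin28a* (65.7 and 111). *Etv5* and *Gfra1* (log2 fold changes −0.47 and −0.14) were not called, and *Id4* went the other way (0.15, not called). Those of differentiating spermatogonia summed to 406 to 650 in WT and 287 to 378 in null, with only *Kit* called, higher in WT. *Stra8*, at 237 ± 130 CPM in WT and 108 ± 43.9 in null, is part of that sum. It overlapped between genotypes and was not called (adjusted p = 0.095, edgeR). *Dnmt3b* went the other way (log2 fold change −0.37) and *Sohlh1* was at 0.20, neither called. Germ cell markers summed to 1804 to 2078 in WT and 1132 to 1323 in null, with *Dazl*, *Tex101* and *Mael* higher in WT. *Ddx4* was not called (log2 fold change 0.24). These 3 sums did not overlap between genotypes, and *Mael* also stands in the piRNA list.

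The defining somatic markers of a testis were present. Sertoli markers summed to 1451 to 1613 CPM in WT and 1367 to 1534 in null (1 of 7, *Gata4*, lower in WT), and peritubular myoid markers to 508 to 580 and 488 to 567 (1 of 4, *Des*, lower). Leydig, macrophage and endothelial sums overlapped, and none of their 14 markers was called. Spermatid markers summed to at most 0.454 CPM, with *Prm1* and *Prm2* at 0. The part of these marker differences in the members' values was not tested.

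The genes whose log2 CPM most resembled that of *Mybl1* and *Tcfl5* over the 7 libraries are given as a description, since the points share library scale and genotype. For *Mybl1* they were *Arfrp1*, *Zkscan6* and *Parp6* (Pearson r 0.991, 0.990 and 0.989), with log2 fold changes of 0.57, 0.21 and 0.29. For *Tcfl5* they were *Prep*, *Aldoc* and *Dstyk* (0.995, 0.991 and 0.986), with log2 fold changes of −0.17, −0.52 and −0.17. Among the 22 other genes with the paired RFX element in their promoter window, 8 were tested and 1, *St7*, was called (log2 fold change 0.65, adjusted p = 0.018), beside 11.1% of all genes.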

How the data were processed

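Total RNA was sequenced from 7 libraries (4 WT, 3 Meioc KO) with a stranded, rRNA-depleted kit, and groups were taken from the labels. The authors deposited, per transcript, estimated counts and TPM from kallisto 0.44.0, after trimming with cutadapt 1.8. Per the study's methods, the transcripts were GENCODE Basic vM15 (mm10), and ERCC mix 1 was added to WT RNA and mix 2 to null RNA (not used here). TPM rescales each library to the same total over all transcripts, so a change in abundant transcripts shifts all other genes. Estimated counts split reads among transcripts of a gene, which makes single-transcript values less certain than gene sums.

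From these files, both units were summed by gene (GENCODE vM21 names, GRCm38, 43020 of 43139 transcripts matched) and the counts were rounded. Genes with TPM of at least 1 in at least 3 libraries (13630) were tested with edgeR 4.0.16 (R 4.3.3, TMM, quasi-likelihood F test, Benjamini-Hochberg adjustment, call under 0.05). CPM is the count per 1000000 of the TMM-scaled library size, and fold changes are WT over null. DESeq2 1.42.0, limma 3.58.1 on log2(TPM + 1 or 0.1), other filters and scalings, each library left out and a replicate block were alternatives. Shares of transcripts were tested by exact permutation over 7 libraries. The edgeR fit was tested on simulated counts. The members, lists and tests were chosen with earlier results of these data known. Named genes were the 9 members, *Meioc*, all genes of the 3 family lists, the 2 called genes of every other list with the largest change in each direction and the 3 genes most like *Mybl1* and *Tcfl5*. Other called genes, *Ift122*, *Spaca1*, *St7*, the spermatid genes at 0 and the marker genes were named after their values were seen. The same holds for list genes named for an unadjusted p only. Each library was a biological replicate per the labels and came from a single pup per the study's methods. The edgeR intervals are for the mean difference between genotypes. They rest on the variation among these pups, with variance estimates that also draw on other genes. Counts from 12537852 to 20552702 per library set the precision of low genes.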

Additional observations from a re-analysis of the deposited data

Results flagged for a closer look

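Dixon's test compares the gap of the highest or lowest library to its neighbour with the range of its group, and it was applied to 19 sets of 4 WT values (the members, *Meioc* and the summed marker lists), of which chance alone would mark about 1 in 20. WT libraries stood apart for 2 genes. *Rfx1* in WT replicate 3 was at 20.4 CPM, with the other WT libraries at 14.5 to 15.4 (gap over range 0.836, above the 95% critical value). *Rfx3* in WT replicate 1 was at 31.1 CPM, with the others at 20.5 to 22.0 (gap over range 0.860). The null group of 3 was too small for this test.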

How the results depend on the processing

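Over 15 alternatives the sign of the log2 fold change held for *Mybl1*, *Mybl2*, *Tcfl5*, *Rfx2* and *Rfx3*. It turned for *Rfx1* (0.28 without null replicate 2, range over libraries left out −0.21 to 0.28, and 0.0034 with a replicate block), *Crem* (−0.0075 and −0.0049 in limma on log2(TPM + 1) and log2(TPM + 0.1)) and *Sox30* (−0.052 to 0.71 over libraries left out). Members called numbered 0 in edgeR, 1 in DESeq2, 1 by library size only, and 2 and 2 in the limma fits; leaving out single libraries gave 0 to 2, with 2 only without WT replicate 1. Over all genes, edgeR called 1513 (1059 higher and 454 lower in WT, 70.0% higher), DESeq2 2331 (875 lower), and library size only 1714 (904 lower, 47.3% higher). The limma fits called 2522 (440 higher, 2082 lower, 17.4% higher) and 2506 (443 and 2063, 17.7%), with median log2 fold changes of all genes of −0.23 and −0.25. Leaving out single libraries gave 131 (without null replicate 3) to 2172 (without WT replicate 1) calls, 113 to 1440 higher and 18 to 837 lower. In between were 296, 275, 478, 2112 and 353 without WT replicates 2, 3 and 4 and null replicates 1 and 2. The cause of these changes was not tested.

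Replicate numbers gave no sign of pairing the pups: deviations of same-numbered libraries correlated at −0.012, −0.089 and −0.17. Those of differently numbered libraries correlated at −0.083 to 0.165. Deviations were taken from the means of 4 and 3 libraries, so this check cannot exclude pairing. A replicate block left 109 calls (94 higher, 15 lower) and no member.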
